A study of Mus musculus with 4 samples.

Results

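Luminal Progenitor 1 (LP1) cells made up the largest of the 4 cell classes in the wild-type mammary tumor library, with 2343 of its 5181 annotated cells (45.2%, exact 95% interval 43.9 to 46.6) and of 15445 annotated cells in the whole study. They were taken by the class that the authors' per-cell table gives each cell, which was assigned from the marker genes of the study's design. The mice carried the MMTV-PyMT transgene, in which a mammary tumor virus promoter drives the polyoma middle T oncogene in mammary epithelium. Single-cell 3′ RNA libraries were made from tumors labelled PKA activated (PKA tumor), tumors labelled wild type (WT tumor), and hyperplastic glands of both genotypes, with 1 library each. All 4 groups carried the transgene and no treatment. Tumors came from mice of 16 to 20 weeks by the sample labels and 22 weeks by the study's design text, and hyperplastic glands from mice of 8 to 9 weeks. The sources used here state neither how PKA was activated nor how many mice went into a library. No comparison therefore has a replicate check, no test was made, and every interval covers counting error only.

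Luminal progenitors are the hormone receptor-negative cells of the mammary duct that feed the milk-secreting alveolar lineage and that many basal-like mammary tumors resemble. Polyoma middle T binds Src kinases and through them engages the PI3K and Ras-ERK pathways. ERK signalling is damped by its own target genes, among them the phosphatases Dusp6 and Dusp5, which strip phosphate from ERK in the cytoplasm and the nucleus, and Errfi1, which inhibits the EGF receptor. Hey1 is a repressor induced by Notch signalling, and Spp1 encodes osteopontin, a secreted phosphoprotein that binds integrins.

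The LP1 cells held 10495215 UMIs, with a median of 4143 per cell, against medians of 5314.5 in Lumino-Basal, 5492 in Mature Luminal and 2860 in EMT-like cells, the other classes of the tumor. The design's luminal progenitor markers led in LP1 and EMT-like cells. Cd14, an LPS co-receptor, had 1017 CPM (UMIs of the gene scaled to the total of the summed cells) in LP1 cells, against 450.04 in Lumino-Basal, 126 in Mature Luminal and 785 in EMT-like cells. Lalba, the milk protein alpha-lactalbumin, had 994 CPM in LP1 cells, against 204, 25.0 and 1607 CPM in the Lumino-Basal, Mature Luminal and EMT-like cells. The receptor Kit had 105 CPM in LP1 and 146 CPM in EMT-like cells, so these markers do not set LP1 apart from the EMT-like class. Since the classes were assigned from such markers, their levels describe the label and do not test it. The markers named for EMT-like cells were low in that class itself. Trim29 and Cldn6 had no UMI there, Vim had 10.6 CPM against 21.7 CPM in LP1 cells, and Sox4 had 244 CPM against 685 CPM in LP1 cells; the class name is used below only as the authors' label. Stromal and immune marker lists were near 0 in LP1 cells: the 6 fibroblast genes summed to 18.3 CPM against 376 CPM in the other classes, and the 5 macrophage genes measured, of 6 listed, to 14.5 against 23.4 CPM. WT tumor shared 16 barcodes with PKA tumor and 21 with WT hyperplasia, of which 7 and 13 were LP1 cells of WT tumor.

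All 5 marker genes given with the class were higher in LP1 cells than in the other classes summed, but they fell into 2 patterns. They were given as leading genes of this class, so their higher levels describe the label and do not test it. Dusp6, Dusp5 and Errfi1 were higher than in each other class, whereas Hey1 and Spp1 were shared with the EMT-like cells. Dusp6 had 640.5 CPM in LP1 cells, against 94.1 in Lumino-Basal, 93.0 in Mature Luminal and 168 in EMT-like cells. Dusp5 had 156 CPM in LP1 cells, against 27.6, 16.0 and 29.4 CPM in the same 3 classes. Errfi1 had 991 CPM in LP1 cells, against 365, 182 and 213 CPM. For these genes each of the other classes stood below LP1. Hey1 had 575 CPM in LP1 and 484 in EMT-like cells, but 19.0 CPM in Lumino-Basal and 25.0 CPM in Mature Luminal cells. Spp1 had 5896 CPM in LP1 and 5341 in EMT-like cells, but 176 and 204 CPM in the Lumino-Basal and Mature Luminal cells. Over the other classes summed, the log2 ratio was 2.59 for Dusp6 (2.51 to 2.67), 2.71 for Dusp5 (2.54 to 2.89), 1.85 for Errfi1 (1.80 to 1.91), 2.49 for Hey1 (2.41 to 2.57) and 2.44 for Spp1 (2.41 to 2.46).

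**Figure D1:**
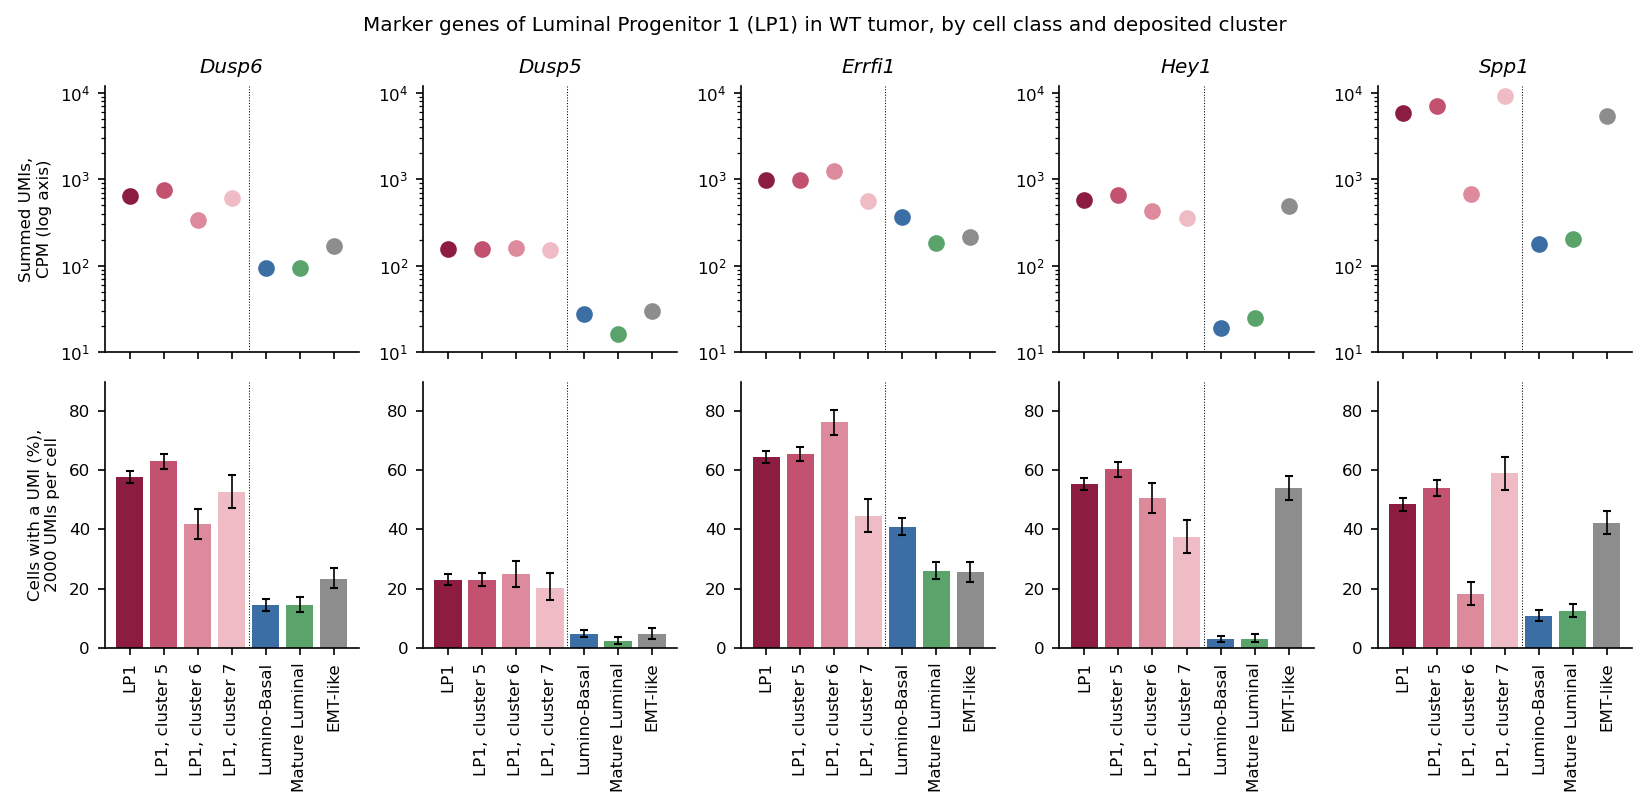
Levels (top, CPM of summed UMIs on a log axis) and shares of cells with a UMI (bottom, percent, each cell thinned to 2000 UMIs, bars with exact 95% intervals) of the 5 marker genes in LP1 cells, their 3 deposited clusters and the other classes of WT tumor. Dusp6, Dusp5 and Errfi1 stand higher in LP1 than in every other class, and Hey1 and Spp1 stand nearly as high in EMT-like cells, with Spp1 low in cluster 6.

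Since 3 of these genes encode brakes on the same pathway and were high together, the 250 bases upstream of their annotated starts are shown, with Spp1 beside them. The sequences come from RefSeq (GRCm38.p6, plus strand), where 4 of the 5 genes matched. Capitals mark matches, on either strand, to 7 motifs: those of the factors AP-1, ETS, CREB (the CRE) and RBPJ, the GC box, the TATA box, and the CArG box that serum response factor reads. The CArG box was added after the sequences had been read.
Dusp6, chr10:99262981-99263230: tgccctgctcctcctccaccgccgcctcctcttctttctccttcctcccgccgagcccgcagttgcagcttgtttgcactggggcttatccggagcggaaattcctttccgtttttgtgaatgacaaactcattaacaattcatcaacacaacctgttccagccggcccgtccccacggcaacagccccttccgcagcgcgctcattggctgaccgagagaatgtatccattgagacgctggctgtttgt
Dusp5, chr19:53528895-53529144: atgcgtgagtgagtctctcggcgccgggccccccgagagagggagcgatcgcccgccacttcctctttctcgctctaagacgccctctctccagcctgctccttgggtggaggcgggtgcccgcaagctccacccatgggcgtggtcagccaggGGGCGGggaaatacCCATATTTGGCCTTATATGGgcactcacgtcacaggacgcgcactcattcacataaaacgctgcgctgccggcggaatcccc
Errfi1, chr4:150854820-150855069: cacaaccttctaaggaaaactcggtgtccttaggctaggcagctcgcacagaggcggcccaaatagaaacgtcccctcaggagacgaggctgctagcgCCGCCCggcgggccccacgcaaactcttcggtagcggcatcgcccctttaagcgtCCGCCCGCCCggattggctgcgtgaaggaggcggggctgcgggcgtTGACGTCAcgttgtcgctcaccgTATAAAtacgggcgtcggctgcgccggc
Spp1, chr5:104434861-104435110: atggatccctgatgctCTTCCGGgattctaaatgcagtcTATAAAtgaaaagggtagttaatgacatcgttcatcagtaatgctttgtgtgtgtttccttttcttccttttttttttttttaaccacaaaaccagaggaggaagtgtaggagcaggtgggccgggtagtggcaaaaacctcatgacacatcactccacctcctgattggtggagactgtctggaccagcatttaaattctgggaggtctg
The Dusp5 window held 2 adjoining CArG boxes and 1 GC box. The Errfi1 window held 1 CRE, 1 TATA and 3 GC boxes, of which 1 overlapped another, and the Spp1 window held 1 ETS and 1 TATA match. The Dusp6 window held none of these letters. Shares are over 32851 promoter windows of the same length. The CArG box was in 1.47% of them. The CRE, written TGACGTCA, was in 1.55%. The ETS motif, searched for here as the letters CCGGAAG, was in 6.91% of all windows. The TATA box was searched for as TATAAA and was held by 12.4% of windows. The GC box, which binds Sp1, was taken to be GGGCGG and was found in 32.7%. The AP-1 motif of Fos and Jun proteins was TGANTCA, in 6.75%. The RBPJ motif, through which Notch acts, was TGGGAA, in 21.6% of the windows. A match is a description of the letters only. Errfi1 and Spp1 each have a further annotated start whose window held no match.

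The same 2 patterns appeared when cells were counted after thinning each to 2000 UMIs, which kept 2195 of the LP1 cells. Dusp6 was detected in 57.9% of LP1 cells (55.8 to 59.9), against 14.3% of Lumino-Basal, 14.4% of Mature Luminal and 23.4% of EMT-like cells. Dusp5 was detected in 22.96% of LP1 cells, against 4.62%, 2.25% and 4.61% of the cells of these classes. Errfi1 was found in 64.4% of LP1 cells, against 41.0%, 26.0% and 25.5%. For these 3 genes the LP1 share was thus above that of each other class, but cells of every class held them. In cluster 7, a deposited cluster of LP1, Errfi1 was found in 44.7% of cells (39.2 to 50.3). That interval overlaps the one of Lumino-Basal cells (38.1 to 44.0). Hey1 was found in 55.4% of LP1 and 54.1% of EMT-like cells, against 2.90% of Lumino-Basal and 3.08% of Mature Luminal cells. Spp1 was found in 48.5% of LP1 and 42.3% of EMT-like cells, against 10.7% and 12.4%. Its summed level in LP1 cells was 5896 CPM, against 575 CPM for Hey1, yet a smaller share of cells held it. The Spp1 level thus sat in a part of the LP1 cells. As a gauge of free RNA, Gpx3, a secreted peroxidase of mature luminal cells, was detected in 1.46% of LP1 against 50.5% of Mature Luminal cells, and the progesterone receptor gene Pgr in 0.592% against 25.2%. Unthinned, the LP1 shares were 73.5% for Dusp6, 36.9% for Dusp5, 76.0% for Errfi1, 70.4% for Hey1 and 55.0% for Spp1.

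At least 3 of the 5 markers were detected in 50.4% of thinned LP1 cells, against 2.44% of Lumino-Basal, 2.13% of Mature Luminal and 16.0% of EMT-like cells. Among these thinned cells, all 5 were detected in 3.23% of LP1 cells and in no cell of the other classes. Unthinned, all 5 were detected in 11.99% of LP1, 0.668% of Lumino-Basal, 0.573% of Mature Luminal and 0.781% of EMT-like cells. Within the thinned LP1 cells the overlap of the genes differed by pair and by cluster. Dusp5 was found in 27.0% of the cells with Errfi1 and in 15.6% of those without it. With and without Dusp6, the shares with Dusp5 were 24.9% and 20.3%. By cluster, that pair stood at 24.3% and 20.9% in cluster 5 and 23.6% and 25.8% in cluster 6. In cluster 7 it stood at 29.6% and 9.93%. Spp1 was found in 52.6% of cells with Dusp6 and 42.8% of those without. Within the authors' clusters of LP1 cells, the shares with Spp1 were 55.5% with Dusp6 and 51.5% without it in cluster 5, 20.5% and 16.4% in cluster 6, and 66.9% and 50.3% in cluster 7. Spp1 was found in 47.5% of the cells that had an Errfi1 UMI and 50.2% of those that had none. By cluster, the pair stood at 52.9% and 56.3% in cluster 5, 19.7% and 13.2% in cluster 6, and 68.5% and 51.4% in cluster 7, so the pooled shares mix clusters of unlike levels. These shares come from the same cells of 1 library and are given as a description.

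Of 2543 genes with at least 100 CPM in either pool of any pairing, 8 (0.315%) were at least 2-fold higher in LP1 cells than in each of the other 3 classes, and none was at least 2-fold lower than in each. A gene counts as 2-fold apart where the log2 ratio of (CPM + 10) reaches 1. The 8 genes were Dusp6, Dusp5, Errfi1, Trib1, Cyr61, Chka, Ncoa7 and Saa1. Trib1, a pseudokinase that scaffolds degradation of C/EBP factors, had 1132 CPM in LP1 cells, against 428, 187 and 486 CPM in the Lumino-Basal, Mature Luminal and EMT-like cells. Cyr61, a secreted matricellular protein, had 3046 CPM in LP1 cells, against 872, 950.4 and 893 CPM. Chka, choline kinase alpha of membrane lipid synthesis, had 837 CPM in LP1 cells, against 370.2, 178 and 409 CPM. The 7 genes other than Saa1 stood between 1.02 and 2.68 above each class on the log2(CPM + 10) scale. Saa1, an acute-phase protein, was 3.27 above Lumino-Basal but 1.21 above EMT-like cells, and only 9.79% of thinned LP1 cells held a UMI of it, so its level sat in a minority of the cells. Reads of Saa1 and its near copy Saa2 may be split by the counting, and their separate values are uncertain.

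Against the other classes summed, 97 genes were at least 2-fold higher in LP1 cells (4.65% of 2087 tested) and 110 were at least 2-fold lower (5.27%). With the other classes weighted equally the counts were 50 and 92, and without cluster 5, the largest of the LP1 clusters, 63 genes were higher and 109 lower. The genes at the edge were Wnt5b at 1.002 and Cnp at 1.01 inside, and Dnajb9 and Id2 at 0.99 outside. Other genes with large ratios were Sparcl1, Chil1, Ptx3, Pgf and Trf. Sparcl1, a matricellular protein, had 172 CPM in LP1 cells and 30.4 CPM in the other classes. Chil1, a chitinase-like lectin, had 687 and 148 CPM, and Ptx3, a soluble pattern-recognition protein, had 375 and 90.4 CPM in LP1 cells and the other classes. Pgf, placental growth factor, had 184 CPM in LP1 cells and 38.3 CPM in the others, a log2 ratio of (CPM + 10) of 2.00 that became 0.40 without cluster 5. Trf, transferrin, had 4836 CPM in LP1 cells and 1361 CPM in the others, with a log2 ratio of 1.83 (1.80 to 1.85). Each of these 5 genes was within 2-fold of its level in EMT-like cells. For example, Trf had 5444 CPM there and Ptx3 had 435 CPM.

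The 12 lowest ratios reflected 1 or 2 of the other classes each. Fgb, a fibrinogen chain, had 5.62 CPM in LP1 cells and 664 CPM in the others, of which Mature Luminal cells held 1895 CPM. Upk3a, a uroplakin, had 6.19 CPM in LP1 cells and 614 CPM in the others. Cited1, a transcriptional co-regulator of hormone-responsive cells, had 6.29 CPM in LP1 cells and 548 CPM in the others. Gpx3 had 11.5 CPM in LP1 cells, against 1923 CPM in Mature Luminal, 14.4 CPM in Lumino-Basal and 11.9 CPM in EMT-like cells. Klk6, a secreted serine protease of squamous epithelium, had 8.96 CPM in LP1 cells, against 1400.2 CPM in Lumino-Basal and 13.9 CPM in Mature Luminal cells. Klk6 belongs to a family of related kallikrein genes, so its counts may be shared with relatives. For all 12 the LP1 and EMT-like levels were within 2-fold on the log2(CPM + 10) scale.

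**Figure D2:**
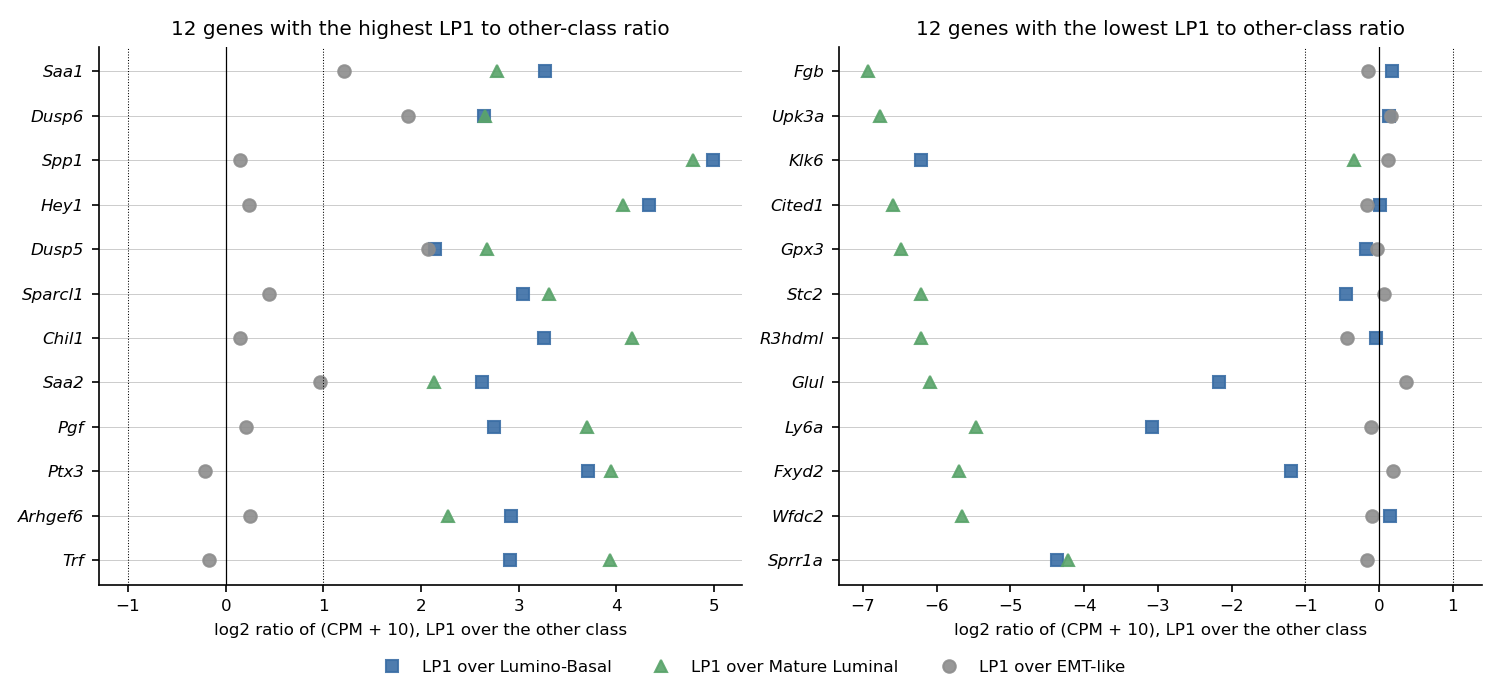
Log2 ratio of (CPM + 10) of LP1 over each other class of WT tumor (squares Lumino-Basal, triangles Mature Luminal, circles EMT-like) for the 12 genes with the highest and the 12 with the lowest ratio over the other classes summed; dotted lines mark 2-fold. Among the 12 highest only Saa1, Dusp6 and Dusp5 lie beyond 2-fold of EMT-like cells, and none of the 12 lowest does.

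Taken class by class, LP1 cells lay closest to the EMT-like cells. Of 1904 genes, 72 were at least 2-fold higher in LP1 (3.78%) and 12 were lower (0.63%). Against Lumino-Basal cells 140 genes were higher (6.43% of 2176) and 136 lower (6.25%), and against Mature Luminal cells 281 were higher (12.8% of 2198) and 249 lower (11.3%). Of 15 measured immediate early genes, transcription factors induced within minutes of stimulation, 14 had intervals above 0 against EMT-like cells and none below (median 1.18). At least 2-fold higher in LP1 were 7 of 13 tested, where 3.78% of all tested genes were. Interval counts over all genes are not given for this comparison. Hilpda, a hypoxia-induced lipid droplet protein, had 626 CPM in LP1 and 61.3 CPM in EMT-like cells, a log2 ratio of 3.35 (3.12 to 3.59). Maff, a small Maf factor, had 564 and 71.1 CPM, and Hbegf, an EGF receptor ligand, had 666 CPM in LP1 and 130.0 CPM in EMT-like cells. Nfkbia, the inhibitor that NF-kB induces, had 1328 CPM in LP1 cells, against 271 CPM in EMT-like cells. Krt17, a basal keratin, had 124 CPM in LP1 and 9.40 CPM in EMT-like cells. The genes lower in LP1 included 3 secretoglobins. Scgb1b27 had 54.8 CPM in LP1 and 986 CPM in EMT-like cells, and Scgb2b27 had 1529 and 6066 CPM; the family has near-identical copies, so these values are uncertain. EMT-like cells had a lower depth than LP1 cells and a higher median mitochondrial share, 2.68% of UMIs against 1.74% in LP1 cells, and the part of either in this comparison was not tested.

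The ERK feedback list includes Dusp6, Dusp5 and Errfi1. Of its 16 measured genes, 12 had an interval above 0 and 2 below 0 against the other classes, with a median log2 ratio of 0.86, where the median over all 18311 measured genes was −0.13; 5 of 8 tested members were at least 2-fold higher. Over all measured genes 2692 had an interval above 0 and 5432 below. Without the 3 markers, 9 of 13 had an interval above 0 and 2 below (median 0.60), and 2 of 5 tested, Egr1 and Spry2, were at least 2-fold higher. Egr1, a zinc finger factor switched on by ERK, had 1334 CPM in LP1 cells and 633 CPM in the others. Etv1, an ETS factor of the PEA3 group, had 121 CPM in LP1 cells, 58.3 CPM in the others and 194 CPM in EMT-like cells, and Spry2, an inhibitor of receptor tyrosine kinase signalling, had 130.4 CPM in LP1 and 50.9 CPM in the others. Not all brakes followed, since Dusp4, a nuclear phosphatase, had 21.1 CPM in LP1 cells and 35.2 CPM in the others, and Spry1 had 35.1 against 60.0 CPM. The EGF receptor gene Egfr itself had 65.9 CPM in LP1 cells, against 18.4 CPM in Lumino-Basal, 3.48 CPM in Mature Luminal and 102 CPM in EMT-like cells.

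The next 3 lists had medians above 0. Of the 12 CREB target genes measured, 10 had intervals above 0 (median 1.02), with the orphan receptor Nr4a1 at 1097 CPM in LP1 and 450.3 CPM in the other classes. Of 14 interferon response genes, 9 lay above 0 and 2 below (median 1.09), among them Irf7 at 499.5 and 196 CPM in LP1 cells and the others. Summed, the interferon genes had 1987 CPM in LP1 and 2186 CPM in EMT-like cells. Of 12 luminal progenitor genes, 10 lay above 0 (median 1.08), but Cd14, Kit and Lalba among them were used to assign the class, so their direction is in part fixed by it, and the list summed to 54372 CPM in LP1 and 79147 CPM in EMT-like cells. From this list, Csn3, kappa-casein, had 35896 CPM in LP1 and 1432 CPM in Mature Luminal cells. The Notch list was split, with 5 members above and 5 below 0 (median 0.23): Hes1 had 2394 CPM in LP1 and 1348 CPM in the others, the ligand gene Dll1 had 39.0 and 15.8 CPM, and the ligand gene Jag1 had 2.48 CPM in LP1 cells and 21.0 CPM in the others. All 10 measured mature luminal genes, some of them also class markers, lay below 0 (median −4.74), as did all 14 measured squamous and kallikrein genes (median −5.36). Of 16 nuclear genes of oxidative phosphorylation, 14 lay below 0, at a median of only −0.29. Wnt targets and ligands had a median of −1.50, with 10 of 12 below 0; Wnt4, a ligand made downstream of progesterone, had 3.24 CPM in LP1 and 129 CPM in the others.

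**Figure D3:**
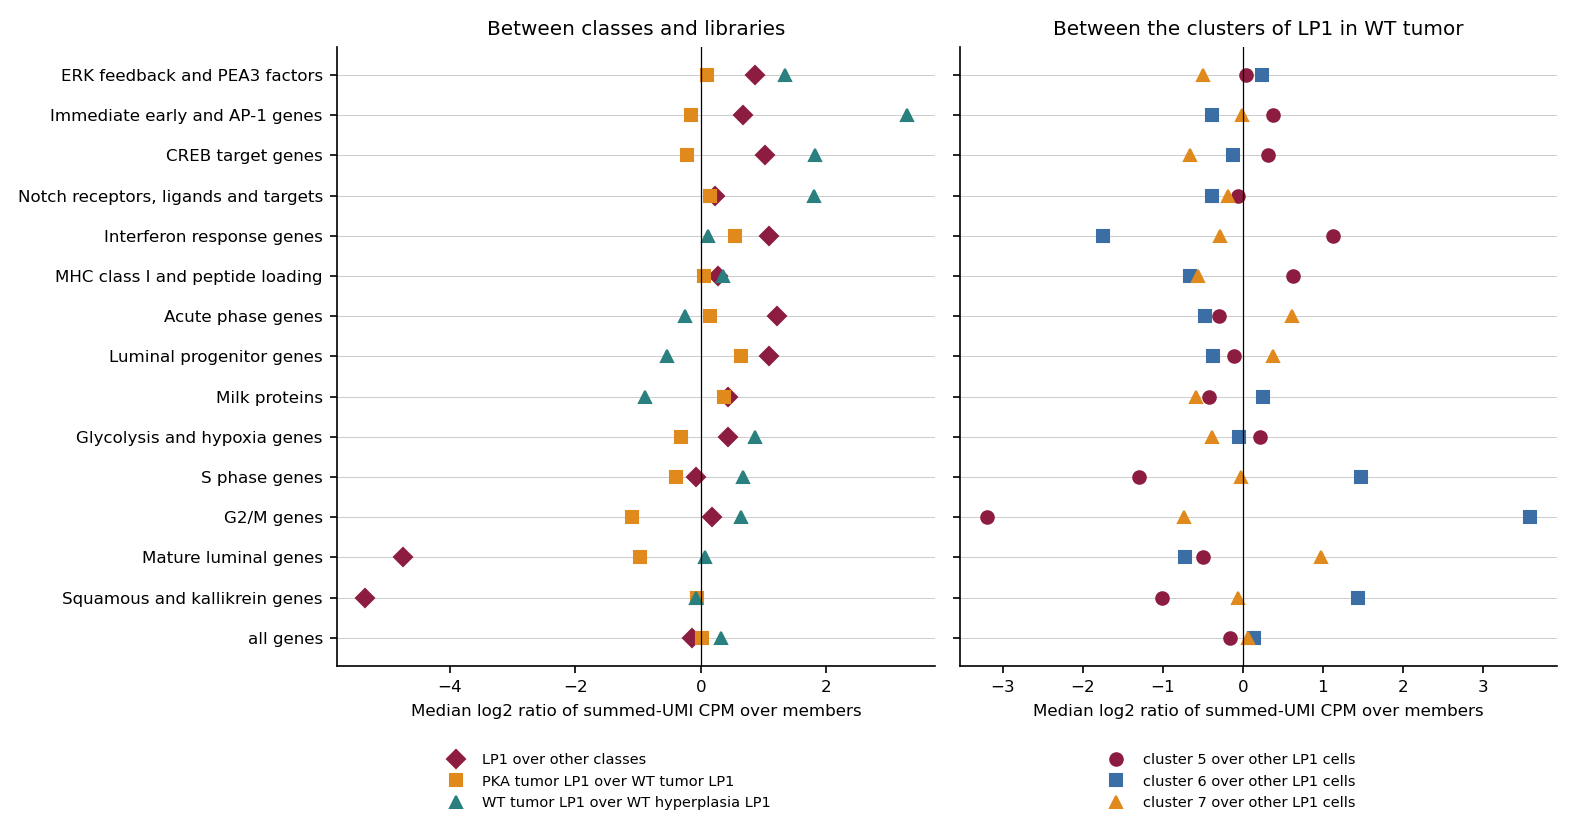
Median log2 ratio over the measured members of 14 gene lists and over all genes, left for LP1 over the other classes of WT tumor (diamonds), PKA tumor over WT tumor LP1 (squares) and WT tumor over WT hyperplasia LP1 (triangles), right for each cluster over the other LP1 cells of WT tumor. The immediate early list is highest in WT tumor over WT hyperplasia at 3.29, and G2/M genes separate cluster 6 at 3.59 from cluster 5 at −3.20.

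The authors' clustering divided the LP1 cells of WT tumor into cluster 5 with 1556 cells, cluster 6 with 399 cells and cluster 7 with 388 cells. Since the clusters were drawn from these same values, what follows describes them and tests nothing. In any cluster, 219 of 2165 genes (10.1%) were at least 2-fold apart from the rest of LP1. Median UMIs per cell were 4169.5 in cluster 5, 5434 in cluster 6 and 3093.5 in cluster 7. Of the 97 genes higher in LP1, 90 were also 2-fold higher than the other classes in cluster 5 alone, 47 in cluster 6 and 54 in cluster 7, with 25 in all 3. Cluster 5 held 6964771 of the 10495215 UMIs on which these genes were chosen, so its count is largely fixed by that choice. Dusp5 was even across the clusters, with 156 CPM in cluster 5, 161 CPM in cluster 6 and 149.6 CPM in cluster 7. Dusp6 had 747 CPM in cluster 5, 335 CPM in cluster 6 and 599 CPM in cluster 7, whereas Errfi1 was highest in cluster 6 at 1253 CPM and lowest in cluster 7 at 558 CPM. Hey1 had 663 CPM in cluster 5, 425 CPM in cluster 6 and 357 CPM in cluster 7. The widest gap was in Spp1, with 6983 CPM in cluster 5 and 9200 CPM in cluster 7 but 666 CPM in cluster 6; thinned cells with Spp1 were 54.1%, 59.1% and 18.1% of these clusters, and the cluster 6 share stood closer to the 10.7% and 12.4% of the Lumino-Basal and Mature Luminal cells than to those of the other clusters.

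Cluster 5 was higher in interferon and antigen presentation genes. Compared with the other LP1 cells, 45 genes were at least 2-fold higher (2.27% of 1980) and 25 lower (1.26%). All 14 interferon response genes had intervals above 0 (median 1.13), and 9 of 10 MHC class I and peptide loading genes did (median 0.62), where 1495 of all 15226 measured genes had intervals above 0 and 3675 below (median −0.16). Ifit3, an interferon-induced antiviral gene, had 143 CPM in cluster 5 and 20.7 CPM in the other LP1 cells, and Rsad2, which encodes viperin, had 84.9 CPM in cluster 5; Ifit genes are close relatives whose reads may be shared. Cst3, the protease inhibitor cystatin C, had 1978 CPM in cluster 5 and 449.5 CPM in the other LP1 cells. Cxcl14, a chemokine, had 136 and 5.10 CPM, and Npy, neuropeptide Y, had 103 and 1.70 CPM in cluster 5 and the other LP1 cells, yet only 8.68% of cluster 5 cells held a Cxcl14 UMI and 7.97% an Npy UMI without thinning. Cdkn1a, the p21 inhibitor of cell cycle kinases, had 730.4 CPM in cluster 5, against 277 CPM in cluster 6 and 247 CPM in cluster 7. Lower in cluster 5 were Lgals7, a galectin of stratified epithelium, with 205 CPM against 1173 CPM in the other LP1 cells, and Mfge8, a milk fat globule protein, with 487 against 1440.3 CPM.

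Cluster 6 had the highest levels of cell cycle genes in LP1. All 16 G2/M genes had intervals above 0 (median 3.59), and their sum was 375 CPM in cluster 6 against 33.5 CPM in the other LP1 cells. Of 15 measured S phase genes, 13 lay above 0 (median 1.48), where 3352 of all 15226 measured genes lay above 0 and 1561 below (median 0.14). Top2a, topoisomerase II alpha, had 29.3 CPM in cluster 6 against 1.87 CPM in cluster 5 and 5.48 CPM in cluster 7, and Birc5, survivin, had 68.3 CPM in cluster 6. Without thinning, only 6.02% of cluster 6 cells held a Top2a UMI and 5.26% a UMI of the proliferation gene Mki67. The UMIs of both genes thus sat in a minority of the cells. In all, 44 genes were at least 2-fold higher (2.15% of 2044) and 78 lower (3.82%) than in the other LP1 cells. Among the leading genes, Wap, whey acidic protein, had 150.4 CPM in cluster 6 and 16.3 CPM in the other LP1 cells, and Thrsp, a regulator of fatty acid synthesis in the mammary gland, had 459 and 55.4 CPM. Lgals7 had 1493 CPM in cluster 6 and 267 CPM in the other LP1 cells, and was found in 78.2% of thinned cells of this cluster. Of 14 measured fatty acid and cholesterol synthesis genes 12 lay above 0 (median 0.59). All 14 interferon genes lay below 0 (median −1.74), with Isg15 at 118 CPM in cluster 6 against 503 CPM in cluster 5. Cd14 had 422 CPM in cluster 6, against 1144 CPM in cluster 5 and 1374 CPM in cluster 7, and Krt14, a basal keratin, had 52.8 CPM in cluster 6 against 401 CPM in the other LP1 cells.

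Cluster 7 had high Saa1, Aldh1a3 and Mfge8 and low Scgb2b27 and Csn1s1. Compared with the other LP1 cells, 60 genes were at least 2-fold higher (3.09% of 1940) and 64 lower (3.3%). Saa1 had 1852 CPM in cluster 7 and 225 CPM in the other LP1 cells, but only 25.0% of thinned cells held a UMI of it. Aldh1a3, a retinaldehyde dehydrogenase that marks luminal progenitors, had 208 and 19.2 CPM, but only 16.9% of thinned cluster 7 cells held a UMI of it. Mfge8 had 2797 CPM in cluster 7 and 532 CPM in the other LP1 cells, and 89.7% of thinned cluster 7 cells held a Mfge8 UMI. Kit was 179 CPM in cluster 7, against 104 CPM in cluster 5 and 67.0 CPM in cluster 6. Wnt5b, a secreted Wnt ligand, had 415 CPM in cluster 7 and 80.9 CPM in the other LP1 cells. Scgb2b27 had 51.7 CPM in cluster 7 and 1733 CPM in the other LP1 cells, Csn1s1, alpha-S1-casein, had 18.0 and 179 CPM, and Lalba had 326 CPM in cluster 7 against 1004 CPM in cluster 5. Of the ERK feedback genes 9 of 16 had intervals below 0 and 1 above (median −0.49, against 0.06 over all genes), with Phlda1 at 1238 CPM in cluster 7 and 3808 CPM in cluster 5. Interval counts over all genes are not given for cluster 7. The mature luminal list summed to 700.1 CPM in cluster 7 and 214 CPM in the other LP1 cells, of which Ly6d, a surface protein, gave 546 CPM in cluster 7; Pgr had no UMI in the 1277014 UMIs of the cluster, and Gpx3 had 5.48 CPM, against 1923 CPM in Mature Luminal cells.

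**Figure D4:**
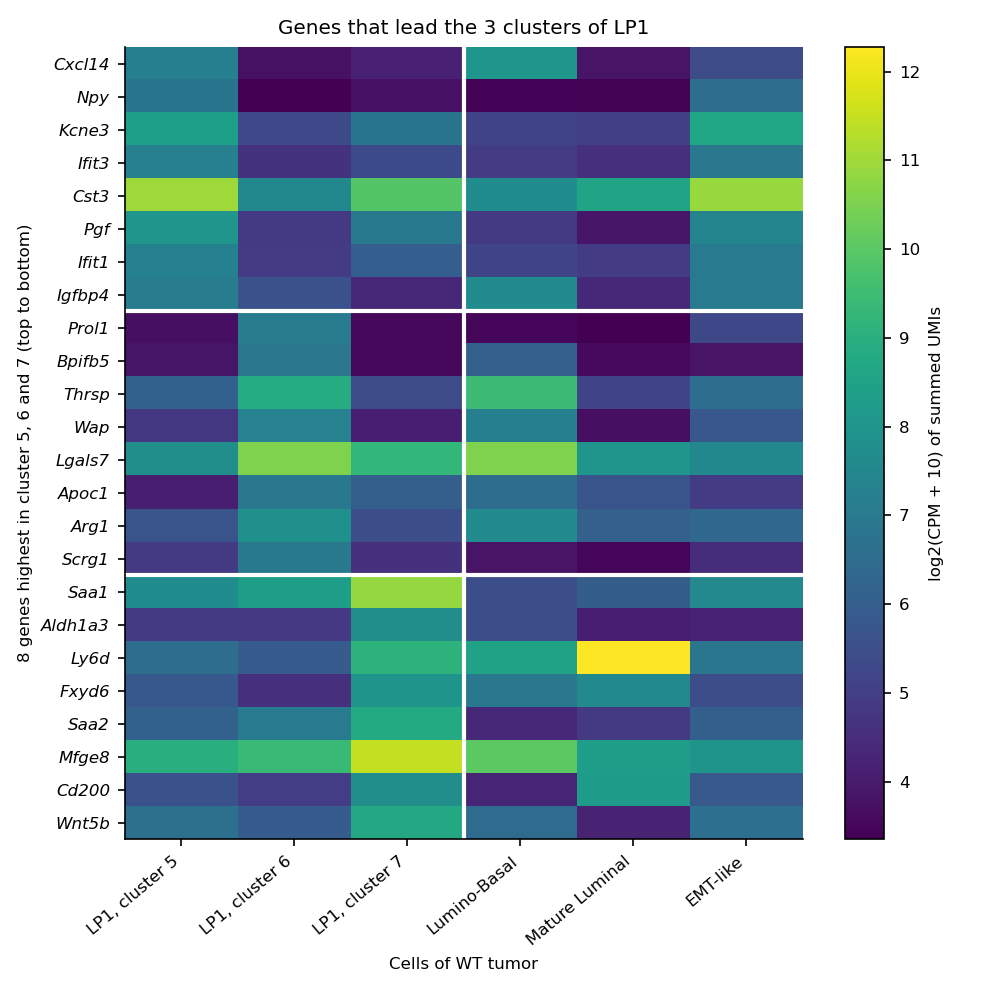
Log2(CPM + 10) of summed UMIs, as colour, for the 8 genes with the highest ratio in clusters 5, 6 and 7 (top, middle and bottom blocks), in the 3 LP1 clusters and the other classes of WT tumor. Most cluster 5 genes other than Cxcl14 are also high in EMT-like cells, and several cluster 6 genes in Lumino-Basal cells.

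Some of the genes that led clusters 5 and 6 were also high in other classes. The 8 leading genes of cluster 5 had a median of 144 CPM there and one of 118 CPM among EMT-like cells, although Cxcl14 had 136 CPM in cluster 5, 32.3 CPM in EMT-like and 250.4 CPM in Lumino-Basal cells. The 8 of cluster 6 had a median of 141 CPM in cluster 6 and 109 CPM in Lumino-Basal cells, and the 8 of cluster 7 had 426 CPM in cluster 7, against 56.8 CPM in Lumino-Basal, 121 CPM in Mature Luminal and 71.5 CPM in EMT-like cells of the tumor, and 402 CPM in LP1 cells of WT hyperplasia. In PKA tumor, whose LP1 cells the authors divided into their own clusters 1, 3, 5 and 7, the genes of WT cluster 5 were highest in PKA cluster 3 for 5 of 8, those of WT cluster 6 in PKA cluster 1 for 5 of 8, and those of WT cluster 7 in PKA cluster 3 for 5 of 8. PKA cluster 3 had 519 cells with medians of 3508 UMIs and 2.64% mitochondrial UMIs. PKA cluster 1 had 1468 cells with medians of 6789 UMIs and 1.36%. PKA clusters 5 and 7 had only 111 and 59 cells. The part of size and depth in these counts was not tested.

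Genes whose level followed Dusp6 over the 9 class and cluster sums of WT tumor were sought by the root mean square difference of centred log2(CPM + 10) among 2636 genes. The closest was Dusp5 at 0.42, then Cyr61 and Trib1 at 0.45, and Nqo1 was also among the closest at 0.54. Nqo1, a quinone reductase of the oxidative stress response, had 90.6 CPM in LP1 cells and 7.19, 15.0 and 60.1 CPM in Lumino-Basal, Mature Luminal and EMT-like cells. The sums share 1 library, and cluster and class sums overlap in cells.

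In PKA tumor, where LP1 cells were 2157 of 2638 (81.8%), 72 of 1959 genes were at least 2-fold higher in LP1 than in the 481 other cells (3.68%) and 111 lower (5.67%). Of the 97 genes higher in LP1 cells of WT tumor, 91 had the same sign there, but only 30 were at least 2-fold higher and none was 2-fold lower. Of the 110 lower genes 100 had the same sign, 79 were 2-fold lower and 3 higher. Dusp6 had 759.8 CPM in LP1 cells of PKA tumor and 215 CPM in its other cells, a difference of 1.78 on the log2(CPM + 10) scale beside 2.48 in WT tumor. Errfi1 differed by 1.67 in PKA tumor and 1.82 in WT tumor. Hey1 was less apart, with 276 CPM in LP1 cells and 179 CPM in the other cells of PKA tumor, or 0.60 beside 2.38 in WT tumor. Sparcl1, Chil1 and Pgf were 0.12, 0.18 and 0.03 apart in PKA tumor, against 2.17, 2.14 and 2.00 in WT tumor. The makeup of the other cells differed, with 238 EMT-like cells, 177 Mature Luminal cells and 66 Lumino-Basal cells in PKA tumor, and the difference between the tumors was not tested.

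Between genotypes, 76 of 1905 genes were at least 2-fold higher in LP1 cells of PKA tumor than in those of WT tumor (3.99%) and 47 were lower (2.47%). The ERK brakes were near equal. Dusp6 had 759.8 CPM in PKA tumor, against 640.5 CPM in WT tumor, Dusp5 had 179 and 156 CPM, and Errfi1 had 1139.8 and 991 CPM in PKA tumor and WT tumor. Their log2 ratios lay between 0.19 and 0.25. Notch-linked genes were mixed. Hey1 had 276 CPM in PKA tumor, against 575 CPM in WT tumor (−1.06, −1.12 to −0.9996). Hes1 had 911 and 2394 CPM, and Dll1 had 17.7 CPM in PKA tumor, against 39.0 CPM in WT tumor. The receptor gene Notch2 was higher in PKA tumor, with 101 and 41.2 CPM. The Notch list as a whole had a median of 0.14. Its sum was 1387 CPM in PKA tumor against 3120 CPM in WT tumor, of which Hes1 alone held 911 and 2394 CPM. Spp1 had 3848 CPM in PKA tumor, against 5896 CPM in WT tumor.

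Among the genes with the highest ratios in LP1 cells of PKA tumor was S100a8. S100a8, a calgranulin subunit, had 324 CPM in PKA tumor, against 16.0 CPM in WT tumor (4.34, 4.12 to 4.57), Saa1 had 2813 and 423 CPM, and Npy had 469 and 69.0 CPM. None of these 3 genes is on the PKA pathway list. Its members include PKA subunits and a phosphodiesterase, and their mRNA levels do not measure PKA activity. Why these 3 genes were higher was not tested. The PKA pathway list of 17 measured genes had a median of −0.03 (0.01 over all 18056 measured genes, of which 3618 had intervals above 0 and 4193 below). Prkaca, the catalytic subunit, had 77.9 CPM in PKA tumor, against 79.7 CPM in WT tumor. Prkar1a, a regulatory subunit, had 274 and 429 CPM, and the phosphodiesterase Pde4d had 326 CPM in PKA tumor, against 175 CPM in WT tumor. Of 11 measured CREB targets, 2 lay above 0 and 7 below (median −0.22), among them Nr4a2 at 58.7 CPM in PKA tumor, against 184 CPM in WT tumor. Lower in PKA tumor were Csn1s1 with 27.3 against 159 CPM, Pgf with 33.1 against 184 CPM, and Hilpda with 148 against 626 CPM in WT tumor. Of 12 p53 targets 9 lay below 0 and none above (median −0.85), with Cdkn1a at 179 CPM in PKA tumor, against 574 CPM in WT tumor, and of 16 G2/M genes 12 lay below 0 (median −1.10). Of 14 interferon genes 13 lay above 0 (median 0.55). Lalba had 3526 CPM in PKA tumor, against 994 CPM in WT tumor. Median UMIs were 5970.0 per LP1 cell in PKA tumor and 4143 in WT tumor, and with 1 library each the genotype, the mouse and the library cannot be told apart.

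**Figure D5:**
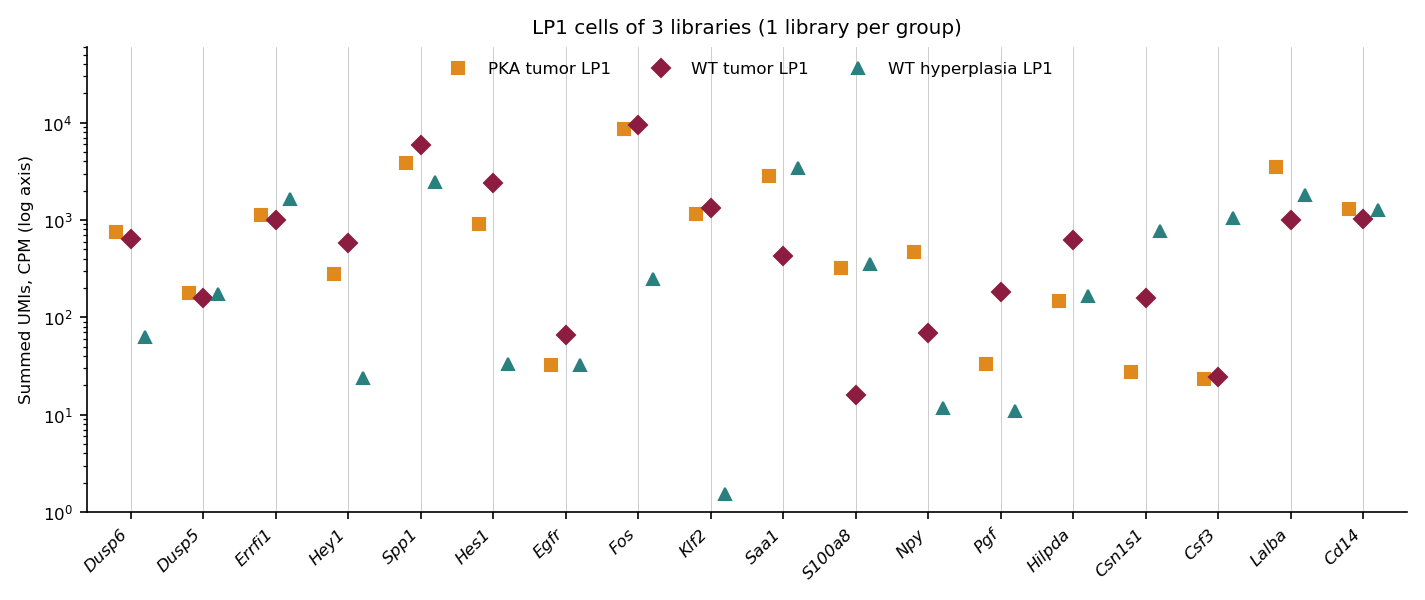
Summed-UMI level (CPM, log axis) of 18 genes in LP1 cells of PKA tumor (squares), WT tumor (diamonds) and WT hyperplasia (triangles), 1 library each and without error bars. Dusp6, Hey1, Hes1, Fos and Klf2 are higher in both tumors than in WT hyperplasia, and Dusp5 is level in the 3 libraries.

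Among the comparisons made here, the largest shares of genes at least 2-fold apart were between LP1 cells of WT tumor and of WT hyperplasia. Unlike the class comparisons, this comparison crosses libraries that differ in age and digestion. LP1 cells of WT hyperplasia numbered 2722 of 3808 annotated cells (71.5%) with a median of 2690 UMIs. Of 2099 genes, 317 were at least 2-fold higher in the tumor (15.1%) and 303 lower (14.4%). With TMM scaling these counts became 232 and 412. Dusp6 had 640.5 CPM in WT tumor and 62.9 CPM in WT hyperplasia (3.35, 3.22 to 3.48), whereas Dusp5 had 156 and 172 CPM and Errfi1 had 991 CPM in WT tumor and 1635 CPM in WT hyperplasia. The class markers thus differed in how they compared between these libraries, since Hey1 had 575 CPM in WT tumor and 23.8 CPM in WT hyperplasia and Spp1 had 5896 and 2479 CPM. Saa1 had 423 CPM in WT tumor and 3460.5 CPM in WT hyperplasia.

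Immediate early genes differed widely by stage. Of 13 tested members, 12 were at least 2-fold higher in WT tumor (median of 15 measured 3.29, against 0.32 over all genes), and the summed level of the list came to 39292 CPM for the WT tumor cells and 4457 CPM for those of WT hyperplasia. Fos had 9521 CPM in WT tumor and 248 CPM in WT hyperplasia, Klf2 had 1324 and 1.53 CPM, and Atf3 had 2706 and 99.2 CPM. Hes1 had 2394 CPM in WT tumor and 32.9 CPM in WT hyperplasia. All 12 measured chemokine and cytokine genes lay below 0 (median −1.74), with the colony-stimulating factor gene Csf3 at 24.5 CPM in WT tumor and 1054 CPM in WT hyperplasia. Of 10 integrin genes 8 lay below 0 (median −1.48), among them Itgav at 52.9 and 226 CPM in WT tumor and WT hyperplasia. How many of all genes had intervals below 0 is not given for this comparison, so these list counts have no base share. Over all tested genes 14.4% were at least 2-fold lower in WT tumor. Milk genes were mixed: Csn3 had 35896 CPM in WT tumor and 14876 CPM in WT hyperplasia, Csn1s1 had 159 and 768 CPM, and Csn1s2a had 2.95 CPM in WT tumor and 385 CPM in WT hyperplasia. Pfn1, profilin, showed the lowest ratio with 36.7 CPM in WT tumor and 2132 CPM in WT hyperplasia. It had 34.6 CPM in LP1 cells of PKA tumor and 2062 CPM in those of PKA hyperplasia, and between 29.8 and 46.5 CPM in every class of WT tumor, so the gap lay between the tumor and hyperplasia libraries of both genotypes. Gapdh, a glycolytic enzyme gene, was at 3.53 CPM in WT tumor and 2.80 CPM in WT hyperplasia. Glands were digested for 2 to 3 hours and then with trypsin and dispase, and tumors in steps of 30 minutes without them; the sources used here also do not state that all libraries were counted with the same annotation and rules. Stage, age, digestion and any difference in counting cannot be told apart in these tumor over hyperplasia values.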

How the data were processed

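Single-cell RNA was measured in 4 libraries, 1 each of PKA tumor, WT tumor, PKA hyperplasia and WT hyperplasia, grouped by the sample titles. Per the labels' protocols, tissue was digested with collagenase and hyaluronidase (glands also with trypsin and dispase), sorted by FACS and made into 10x Chromium 3′ libraries, aiming at 5000 cells each and 50000 reads per cell. The authors deposited raw UMI counts per gene and barcode and a per-cell table with the class, the cluster and the mitochondrial fraction of UMIs, and per the study's design text the classes were assigned with Monocle2. Named in the submitters' processing notes are STAR 2.5.3a, Cell Ranger, Subread 1.6.0 with featureCounts, and the GRCm38/mm10 build. Of the gene annotation the notes name no release. The filter that left 619 of 5800 WT tumor barcodes without an annotation is not stated either, and these barcodes entered no comparison.

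UMIs were summed over the cells of a class or cluster and scaled to CPM. Since cells are not replicates and there was 1 library per group, no test was made. Log2 ratios carry exact conditional binomial 95% intervals and shares carry Clopper-Pearson 95% intervals, which cover counting error only. A gene reaching 100 CPM in the higher pool was called at a log2 ratio of (CPM + 10) of 1 or more. Intervals of list members needed at least 10 UMIs over both pools, and 0.5 UMIs were added in list ratios. Shares of cells were taken after thinning each cell to 2000 UMIs with a fixed seed. No doublet caller was run and no doublets were removed. Named genes were the marker genes, the 12 highest and 12 lowest ratios of the class comparison and the 8 highest and 8 lowest of each other comparison, without mitochondrial, ribosomal, haemoglobin, predicted and sex-linked genes, together with members of the 39 gene lists, the genes higher than in each class and those most like Dusp6. A gene among the last is not reported here. The members and the lists were chosen with earlier results of these data known. Alternatives changed the minimum level, the added CPM, the scaling (TMM of edgeR 4.0.16 in R 4.3.3), the cells kept and the thinning. Work was done in Python 3.11.15 with pandas 2.3.3, SciPy 1.17.1, NumPy 2.4.6 and matplotlib 3.10.9, and the calling was tested on simulated data.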

Additional observations from a re-analysis of the deposited data

Results flagged for a closer look

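The 619 barcodes of WT tumor that the authors' table leaves without a class are outside all comparisons above, yet they held UMIs of all 5 marker genes, above the 2.78 CPM that 3 counts of their 1078808 UMIs would give. Spp1 stood at 1309.8 CPM in them, Errfi1 at 433 CPM, Hey1 at 215 CPM, Dusp6 at 200.2 CPM and Dusp5 at 48.2 CPM. All 5 values lie below those of LP1 cells. Of these barcodes, 574 held fewer UMIs than any annotated cell and 45 held more. In the shallow ones Spp1 had 2645 CPM and Dusp6 233 CPM, and in the deep ones Spp1 had 482 CPM and Dusp6 180.2 CPM. Marker genes of other classes were present too, with Gpx3 at 97.3 CPM and Klk6 at 122 CPM over all 619. Whether these are cells, doublets or free RNA was not tested.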

How the results depend on the processing

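No paired analysis was possible because each group has 1 library. Counts of genes past 2-fold depended on the minimum level and on the cells compared. With no minimum, genes higher and lower in LP1 cells than in the other classes numbered 174 and 351 (97 and 110 as reported), in PKA tumor over WT tumor 123 and 114 (76 and 47), in WT tumor over WT hyperplasia 899 and 564 (317 and 303), and between clusters 565 (219). At a minimum of 50 CPM there were 180 lower genes in the class comparison, 541 higher in WT tumor than WT hyperplasia and 330 between clusters. Weighting the other classes equally gave 50 higher and 92 lower genes, and leaving out cluster 5 gave 63 higher genes, of which 50 were among the 97; 7 of the 97 then had the opposite sign. LP1 cells were 40.4% of all barcodes. TMM scaling moved the median of all tested genes in the class comparison from −0.11 to 0.01 and in WT tumor over WT hyperplasia from 0.04 to −0.25. Unthinned and at 1000 UMIs, the LP1 shares were 73.5% and 39.2% for Dusp6, 36.9% and 13.2% for Dusp5, 76.0% and 48.1% for Errfi1, 70.4% and 37.4% for Hey1, and 55.0% and 42.0% for Spp1. Of the single-gene values under alternatives, 615 kept their side of 2-fold, and 1 did not, Pgf at 0.40 without cluster 5. Changing the minimum level cannot move the ratio of a gene, so the values under those settings were fixed in advance. The genes were also picked for extreme ratios, so this count does not measure how stable other genes are. Of the summary values, 64 stayed within their limits and 23 moved. A lower minimum tests more genes by construction. Shares of cells with a UMI follow the UMIs kept per cell, and adding barcodes without a class can only lower the LP1 share. For the remaining moves the cause was not tested. Leaving out clusters was chosen after seeing the data. Depth limits Dusp5 and the G2/M genes, whose summed levels are low.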

Other observations

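Of 15 transcription factors of the mammary lineage measured in LP1 cells, 10 had intervals above 0 and 4 below in WT tumor over WT hyperplasia (median 0.71, against 0.32 over all genes), and 5 of 12 tested were at least 2-fold higher, where 15.1% of all tested genes were. The interval counts have no share over all genes beside them. Cebpb, a factor needed for luminal cell fate, had 822 CPM in LP1 cells of WT tumor, against 33.2 CPM in those of WT hyperplasia. Cebpd had 1013 CPM in WT tumor and 84.9 CPM in WT hyperplasia, and Ehf, an epithelial ETS factor, had 522 CPM in WT tumor and 75.0 CPM in WT hyperplasia. Here too, stage, age, digestion and any difference in counting cannot be told apart. Elf5, which directs alveolar differentiation, had 291 CPM in PKA tumor, 384 CPM in WT tumor and 250.5 CPM in WT hyperplasia. The gene of the hypoxia-regulated prolyl hydroxylase Egln3 had 225 CPM in cluster 6, against 95.05 CPM in cluster 5 and 79.9 CPM in cluster 7. Xbp1, a factor of secretory cells, had 562 CPM in cluster 7, against 1867 CPM in cluster 5 and 1388 CPM in cluster 6. Krt19, a luminal keratin, had 1737 CPM in cluster 7, against 583 CPM in cluster 5 and 451 CPM in cluster 6. The genes named here were picked after their values were seen.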
